A study of Mus musculus with 5 samples.

Results

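The cell division programme was followed in 5 sorted bone marrow cell populations through 49 genes of the cell cycle and of DNA replication, taken by symbol from a list of their known roles. The list holds 24 genes of mitosis, 24 genes of S phase and Stmn1, which was kept apart from both. All 49 symbols were found among the 23234 listed, and the standard symbol Cdk1 was present. RNA-seq libraries, 1 per condition, had been made from C57BL/6 mice aged 7 weeks, all of the genotype +/Ym1Venus, in which the fluorescent protein Venus reports the gene for the chitinase-like protein Ym1. Monocytes were Ly6C+ CD115+ cells, sorted as Venus+ (Ym1+ monocytes) or Venus- (Ym1- monocytes) 48 h after 100 µg of LPS per mouse i.v., and as Venus- cells from untreated mice (naïve monocytes). Ly6G+ neutrophils came from mice given LPS 48 h earlier and from untreated ones. The sources do not say how many mice gave each library. Since naïve monocytes were gated Venus-, the Ym1+ library differs from them in both LPS and gate, and these cannot be told apart. LPS (lipopolysaccharide) is a component of the outer membrane of Gram-negative bacteria that activates Toll-like receptor 4.

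A dividing cell copies its DNA in S phase and separates the copies in mitosis, and each step has its own set of genes, most of which are transcribed only for part of the cycle. The S phase genes are switched on at the end of G1, largely by E2F factors, and encode the replicative helicase, its loaders, polymerases and the enzymes that make deoxynucleotides. The mitosis genes reach their peak in G2 and M, under the B-Myb and FoxM1 complexes, and encode cyclins, kinases, the spindle checkpoint and the motors of the spindle. The separation is not strict, since Top2a, Ccna2 and Cdk1, counted here as mitosis genes, also act before mitosis. In the bone marrow, division is a property of the precursors of monocytes and neutrophils, and mature neutrophils do not divide.

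Expression was measured as FPKM, the fragments of a gene scaled by its transcript length and by the size of the library, so that levels can be compared between genes. Pairs of libraries were set against each other on the scale of log2(FPKM + 1), on which low genes appear less changed than they are. With 1 library per condition there is no replicate, no test was possible and each difference describes a pair of libraries. Read from the steps between low values, depth in the other libraries ranged from 44.5% (Ym1- monocytes) to 96.8% of that of the Ym1+ library. At that depth, a transcript of 2 kb with an FPKM of 10 rests on roughly 85.1 to 189 fragments. The ± values below are approximate 95% counting half-widths that rest on this estimate and cover counting error only. They take the longest coding transcript of each gene, and so are too narrow for genes expressed mainly as a shorter one. The labelled cell types carried their markers. Summed FPKM of 6 monocyte markers lay between 1434 and 2037 in the monocyte libraries and at 23.1 and 39.7 in the neutrophil libraries, and that of 7 neutrophil markers at 278075 and 288439 in neutrophils. The neutrophil marker sum was 1119 in naïve monocytes, 1839 in Ym1- monocytes and 13818 in Ym1+ monocytes, the last being 4.97% of its value in neutrophils after LPS. Marker sums of stem cells, erythroid cells, B cell precursors, T and NK cells, eosinophils and basophils, and megakaryocytes were 31.0 or less in every library, and that of 4 dendritic cell genes, which include the widely expressed Bst2, lay between 5.87 and 80.9. The sum of 5 granulocyte precursor markers was high in monocytes, at 2484 in the naïve, 1964 in the Ym1- and 1622 in the Ym1+ library. In naïve and LPS neutrophils it was 56.2 and 822.

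None of the 49 genes was listed at 0 in any library, and 48 had an FPKM of at least 1 in all 5. The exception was Gins1, at 0.891 in naïve neutrophils. Together the 49 genes made up 0.649% of all FPKM in naïve monocytes, 0.905% in Ym1- monocytes and 0.909% in Ym1+ monocytes, against 0.103% in naïve neutrophils and 0.178% in neutrophils after LPS. As deposited, all 24 mitosis genes and all 24 S phase genes were lower in each neutrophil library than in each monocyte library. The same held for 59.5% of the 11267 genes with an FPKM of at least 1 somewhere. Median-of-ratios scaling divides values by 1.29 in naïve monocytes and by 0.722 in neutrophils after LPS. On that scale the order did not hold for every gene. Ube2c, Ccnb2, Plk1 and Rrm2 were among those then higher in neutrophils after LPS than in naïve monocytes. In whole populations, fewer dividing cells and less of these transcripts per cell cannot be told apart.

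The lists parted in which library held their highest level. All 24 S phase genes were highest in Ym1- monocytes after LPS, the library that was highest for 32.5% of those 11267 genes, and 23 of the 24 mitosis genes were highest in Ym1+ monocytes after LPS, the highest library for 11% of them. Ccnb2, a B-type cyclin, was the mitosis gene that was highest in Ym1- monocytes. All 24 S phase genes were lowest in naïve neutrophils, as were 20 of the mitosis genes and 44.1% of all, while Ttk, Cenpe, Cenpf and Kif23 were lowest in neutrophils after LPS.

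**Figure D1:**
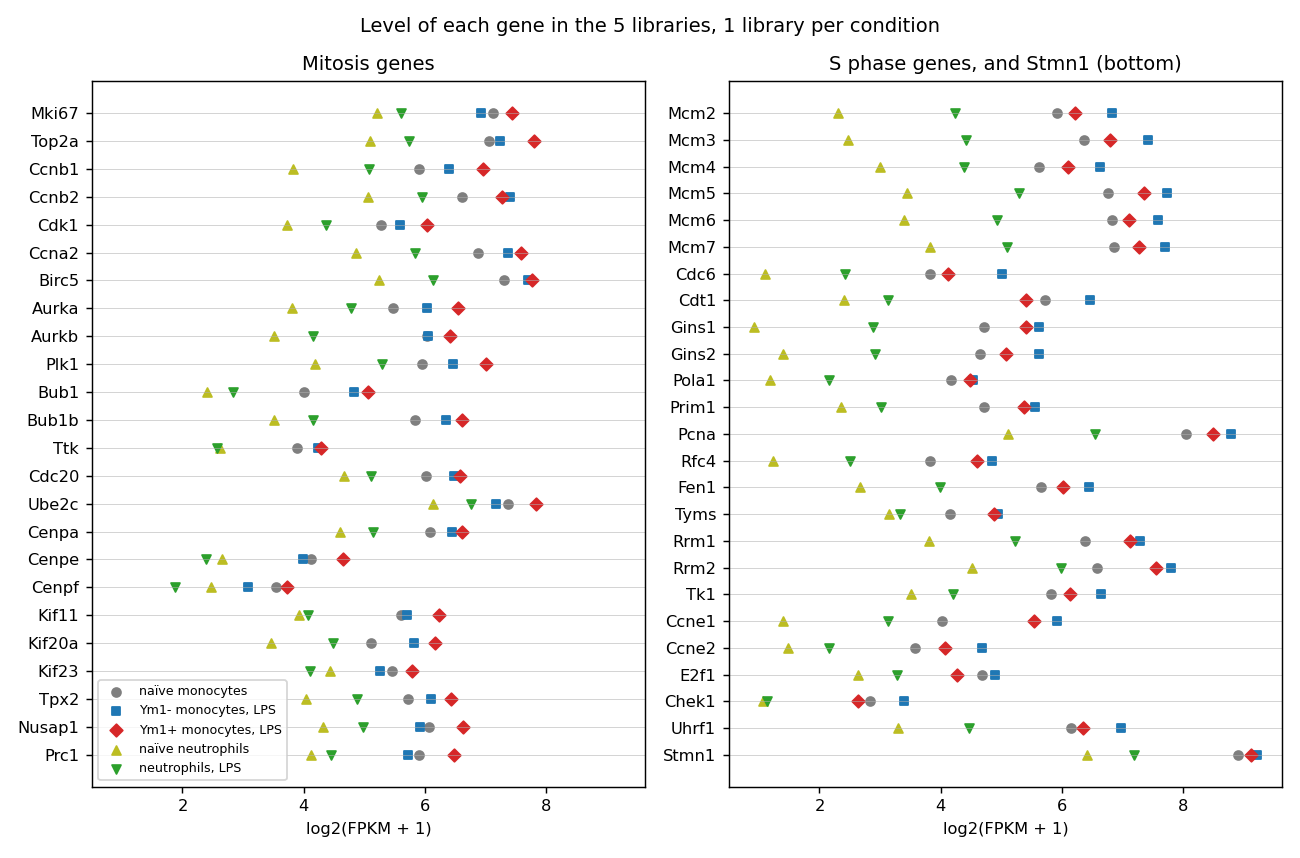
Level of each of the 49 genes as log2(FPKM + 1) on the horizontal axis, 1 symbol per library, with mitosis genes on the left and S phase genes and Stmn1 on the right. The red diamonds (Ym1+ monocytes) lie farthest right for 23 of 24 mitosis genes and the blue squares (Ym1- monocytes) for 24 of 24 S phase genes. On this scale of deposited FPKM, both neutrophil libraries lie left of all monocyte libraries. The symbols of naïve and Ym1- monocytes nearly coincide for Aurkb.

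Among the mitosis genes, Top2a, whose enzyme untangles replicated DNA, had an FPKM of 133 in naïve monocytes, 151 in Ym1- monocytes, 222 in Ym1+ monocytes, 33.1 in naïve neutrophils and 52.2 in neutrophils after LPS. Mki67, which encodes the proliferation antigen Ki-67 on the surface of mitotic chromosomes, stood at 138, 121, 173, 35.9 and 47.9 in the same order. Both were highest in the Ym1+ library and lowest in naïve neutrophils, yet Mki67 was lower in Ym1- than in naïve monocytes whereas Top2a was higher.

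Ccna2, the gene of cyclin A2, had an FPKM of 117, 164 and 192 in naïve, Ym1- and Ym1+ monocytes and of 28.1 and 56.4 in naïve and LPS neutrophils. Ccnb2 stood at 97.1, 168 and 153 and at 32.6 and 61.2. Cyclins A and B activate Cdk1, the kinase that drives entry into mitosis, and its own gene stood at 37.6, 46.99 and 64.4 in the monocyte and 12.3 and 19.8 in the neutrophil libraries. The cyclin genes were above Cdk1 in each library. As deposited, all 3 genes were lower in both neutrophil libraries than in any monocyte library.

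Birc5 (survivin), the chromosomal passenger that works with Aurora B, had an FPKM of 158, 208 and 218 in the 3 monocyte libraries and 36.9 and 69.7 in the 2 neutrophil libraries. Plk1, a kinase of centrosome maturation and of mitotic exit, stood at 60.7, 87.1 and 129 and at 17.3 and 38.4. Aurka, the centrosomal Aurora kinase, stood at 43.4, 64.95 and 92.8 and at 13.04 and 26.4. Plk1 and Aurka stood above the naïve level in Ym1- monocytes and higher again in Ym1+ monocytes, while Birc5 was nearly level between the last pair.

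The spindle checkpoint holds anaphase until every chromosome is attached. Its gene Bub1b (BubR1) had an FPKM of 55.9, 80.7 and 97.1 in monocytes and 10.3 and 16.8 in neutrophils, and Bub1 of 15.02, 27.4 and 32.3 and 4.30 and 6.17. Cdc20 and Ube2c encode the activator and the ubiquitin-conjugating enzyme of the anaphase-promoting complex, which ends the checkpoint. Cdc20 stood at 64.2, 88.6 and 94.3 in monocytes and 24.4 and 33.5 in neutrophils, and Ube2c at 165, 144 and 227 and 69.3 and 108. Of all mitosis genes, Ube2c had the highest FPKM in both neutrophil libraries, and it was lowest of the monocyte libraries in Ym1- monocytes.

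Cenpa, the histone H3 variant that marks centromeres, had an FPKM of 66.97, 86.4 and 96.7 in monocytes and 23.3 and 34.4 in neutrophils. Cenpe, a kinetochore motor, stood at 16.3, 14.9 and 24.2 and at 5.32 and 4.24. Nusap1, a microtubule binder of the spindle, stood at 66.5, 59.3 and 98.05 and at 18.98 and 30.5, and Tpx2, which activates Aurora A on the spindle, at 51.7, 67.7 and 85.4 and at 15.5 and 28.5. Cenpe and Nusap1 followed Mki67 in being lower in Ym1- than in naïve monocytes, and Cenpa and Tpx2 did not.

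The S phase genes are described from the MCM helicase onwards. Mcm7, a subunit of the ring that unwinds DNA at the fork, had an FPKM of 116 in naïve monocytes, 209 in Ym1- monocytes, 153 in Ym1+ monocytes, 13.2 in naïve neutrophils and 33.01 in neutrophils after LPS. Mcm5 stood at 108, 211, 163, 9.89 and 38.4 in the same order, and Mcm3 at 81.5, 169.8, 109.7, 4.54 and 20.3. All 6 MCM genes had the same order of libraries, with Ym1- above Ym1+ above naïve monocytes and LPS above naïve neutrophils.

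Before S phase, Cdc6 and Cdt1 load the MCM ring at origins, and the GINS proteins then help to activate it. Cdt1 had an FPKM of 51.7, 87.1 and 41.7 in naïve, Ym1- and Ym1+ monocytes and 4.30 and 7.72 in naïve and LPS neutrophils, and so was lowest of the monocytes in the Ym1+ library. Gins2 stood at 24.1, 48.4 and 32.6 and at 1.65 and 6.51. Gins1, the gene with the lowest value of all, stood at 25.2, 48.2 and 41.4 and at 0.891 and 6.41, and Cdc6 at 13.2, 31.3 and 16.3 and at 1.13 and 4.36. Except for Cdt1, these genes were lowest of the monocyte libraries in naïve monocytes.

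DNA polymerase alpha and its primase begin each new strand. Pola1 had an FPKM of 17.1, 22.1 and 21.3 in monocytes and 1.28 and 3.44 in neutrophils, and Prim1 of 25.4, 45.99 and 40.5 and 4.14 and 7.10. Pcna encodes the sliding clamp that holds polymerases on DNA and had the highest FPKM of the S phase genes in every library, at 263 in naïve monocytes, 444 in Ym1- monocytes, 360.4 in Ym1+ monocytes, 33.5 in naïve neutrophils and 92.2 in neutrophils after LPS. Fen1, the nuclease that trims Okazaki fragments, stood at 49.5, 86.1 and 63.9 in monocytes and 5.37 and 14.8 in neutrophils.

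Ribonucleotide reductase makes deoxynucleotides from a large (Rrm1) and a small subunit (Rrm2). Rrm2 had an FPKM of 94.9, 223 and 188 in monocytes and 22.01 and 62.7 in neutrophils, and Rrm1 of 82.2, 155 and 138 and 13.02 and 36.7. Both were closer between the Ym1- and Ym1+ libraries than either was to naïve monocytes. The G1/S regulator Ccne1 (cyclin E1) shared this order, at 15.2, 59.6 and 45.8 in monocytes and 1.62 and 7.75 in neutrophils.

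E2f1, a transcription factor of S phase genes, stayed within 2-fold across the monocyte libraries, at 24.7, 28.8 and 18.3 in monocytes and 5.21 and 8.68 in neutrophils. Uhrf1, which carries DNA methylation over to the new strand, stood at 70.2, 125 and 80.2 and at 8.80 and 21.2. Chek1, the kinase of the replication checkpoint, was the lowest of the S phase genes in all 3 monocyte libraries, at 6.10, 9.57 and 5.20, and stood at 1.11 and 1.18 in neutrophils. E2f1 and Chek1, like Cdt1, were lowest of the monocyte libraries in Ym1+ cells.

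Stmn1, which destabilises microtubules and is a common label of proliferating cells, had the highest FPKM of the 49 genes in every library, at 480.3 in naïve monocytes, 598 in Ym1- monocytes, 558 in Ym1+ monocytes, 84.9 in naïve neutrophils and 144 in neutrophils after LPS. Its 3 monocyte values lay closer together, as a ratio of highest to lowest, than those of any other of the 49 genes.

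The promoters of the lists were examined for what the genes share in sequence. Shown are the 3 mitosis and the 3 S phase genes of highest mean level with an entry in the promoter table, each from 150 bases before to 30 after the start, 5′ to 3′, from RefSeq on GRCm38.p6. The expression files use another build, mm9. Capitals mark a CCAAT box (CCAAT, or ATTGG on the other strand), a cell cycle homology region or CHR (TTTGAA, or TTCAAA), and an E2F site (TTTNGCGC, or GCGCNAAA). The promoters lie at chr2:164769779-164769958, strand + (Ube2c), chr11:117849087-117849266, strand + (Birc5), chr11:99024160-99024339, strand - (Top2a), chr2:132253151-132253330, strand - (Pcna), chr12:24708104-24708283, strand + (Rrm2) and chr5:138171854-138172033, strand - (Mcm7).
Ube2c: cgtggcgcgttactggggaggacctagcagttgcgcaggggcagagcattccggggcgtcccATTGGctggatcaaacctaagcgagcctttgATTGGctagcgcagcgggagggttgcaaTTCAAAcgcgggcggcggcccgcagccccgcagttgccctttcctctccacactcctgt
Birc5: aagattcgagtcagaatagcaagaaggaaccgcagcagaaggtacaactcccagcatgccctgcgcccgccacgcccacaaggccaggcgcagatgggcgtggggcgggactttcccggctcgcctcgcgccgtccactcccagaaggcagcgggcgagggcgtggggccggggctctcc
Top2a: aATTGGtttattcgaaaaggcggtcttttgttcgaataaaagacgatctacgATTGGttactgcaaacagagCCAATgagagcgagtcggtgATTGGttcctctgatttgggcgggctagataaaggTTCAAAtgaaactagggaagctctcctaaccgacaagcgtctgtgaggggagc
Pcna: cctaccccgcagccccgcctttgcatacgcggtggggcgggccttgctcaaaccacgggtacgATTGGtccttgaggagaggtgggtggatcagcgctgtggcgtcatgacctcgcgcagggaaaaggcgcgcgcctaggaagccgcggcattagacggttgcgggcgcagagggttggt
Rrm2: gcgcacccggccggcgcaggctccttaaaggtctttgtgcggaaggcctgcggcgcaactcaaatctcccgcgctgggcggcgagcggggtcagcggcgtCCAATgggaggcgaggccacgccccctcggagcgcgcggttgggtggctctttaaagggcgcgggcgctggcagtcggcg
Mcm7: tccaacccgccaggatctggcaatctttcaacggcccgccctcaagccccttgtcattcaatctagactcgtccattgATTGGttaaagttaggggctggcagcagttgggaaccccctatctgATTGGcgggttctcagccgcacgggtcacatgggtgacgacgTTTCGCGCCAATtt

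In Ube2c, the CHR letters began 29 bases before the start, with CCAAT boxes on the other strand at -57 and -88. Top2a was arranged in a like way, with CHR letters at -23 and CCAAT boxes at -58, -78, -98 and -149. Birc5 held none of the 3 motifs in its window. Pcna and Rrm2 each held a CCAAT box and no other motif. In Mcm7, the first of 2 promoters in the table, an E2F site began 17 bases after the start and overlapped a CCAAT box at 24 by 1 base, and CCAAT boxes lay at -26 and -72 on the other strand. Of the 49 genes, 40 had an entry, 20 of each list, and the motifs were counted over the whole 300-base window of the table (250 bases before to 50 after the start). CHR letters were found in 15 of 20 mitosis promoters and 2 of 20 S phase promoters (Mcm2 and Fen1), against 20.2% of the 27025 genes of the table and 14.4% of the 8006 with an FPKM of at least 1 in any library. An E2F site was found in 7 of 20 S phase promoters (Mcm3, Mcm5, Mcm6, Mcm7, Cdt1, Pola1 and Uhrf1) and in 1 of 20 mitosis promoters (Cdk1), against 1.57% of all genes and 3.11% of the expressed ones. CCAAT boxes were found in 18 of 20 mitosis and 11 of 20 S phase promoters, against 41.1% of all genes and 44.1% of the expressed ones. A match is a run of letters and not a shown binding site.

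Naïve neutrophils were first compared with naïve monocytes. All 49 genes were at least 2-fold lower in neutrophils, where 42.7% of the 10944 genes tested were at least 2-fold lower and 10.8% at least 2-fold higher. The median difference was -1.67 over the mitosis genes (3.18-fold lower) and -2.80 over the S phase genes (6.96-fold lower), against -0.79 over all genes tested. S100a8 and S100a9 alone took 29.96% of all FPKM in naïve neutrophils and 0.172% of it in naïve monocytes. Total FPKM was 711643 in naïve neutrophils and 536819 in naïve monocytes. The part of S100a8 and S100a9 in the differences was not tested. With median-of-ratios scaling, which sets the typical gene level between libraries, the median of all genes moved by 0.71, to -0.080. On that scale 7 mitosis genes, 23 S phase genes and Stmn1 were at least 2-fold lower, against 24.2% of the genes tested, and the list medians were -0.86 and -2.09. Of all genes at least 2-fold apart, 20.2% were higher in neutrophils as deposited and 48.0% after this scaling. As deposited, all 5 granulocyte precursor markers were also at least 2-fold lower in naïve neutrophils, against 42.7% of the genes tested. Their summed FPKM was 56.2 there and 2484 in naïve monocytes, and their part in the result was not tested.

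The helicase genes and their partners were the lowest relative to monocytes. Mcm3 differed by -3.90 ± 0.22, Gins1 by -3.79 ± 0.49 and Mcm2 by -3.61 ± 0.22. The MCM helicase genes had a median difference of -3.38, and the 4 genes of licensing and helicase activation one of -3.28. Genes of nucleotide supply had a median of -2.18, and among them Tyms, thymidylate synthase, was the S phase gene closest to its monocyte level, at -1.01 ± 0.22. In the mitosis list the differences ran from -2.53 for Aurkb to -1.03 for Kif23, a motor of cytokinesis. Stmn1 differed by -2.49, between the medians of the lists. The median S phase gene stood at the 31.8th percentile of expressed genes in naïve neutrophils and at the 82.8th in naïve monocytes, and the median mitosis gene at the 62.9th and the 86.3rd.

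In neutrophils, the S phase genes were higher after LPS, and by more than the mitosis genes. Of the 24 S phase genes, 16 were at least 2-fold higher after LPS, against 3 of the 24 mitosis genes and 8.96% of the 9583 genes tested, and no member was among the 5.35% that were at least 2-fold lower. The median difference was 1.32 for S phase (2.50-fold higher), 0.64 for mitosis (1.56-fold higher) and 0.069 over all genes tested. By any amount, all 24 S phase genes and 20 of the 24 mitosis genes were higher, against 54.3% of all genes. The largest differences were those of Gins1 (1.97 ± 0.56), Mcm3 (1.95 ± 0.24) and Mcm2 (1.92 ± 0.24). This comparison and the one before share the naïve neutrophil library.

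All 6 MCM genes were at least 2-fold higher, as were Pcna (1.44 ± 0.15), Rrm2 (1.47 ± 0.15) and Ccne1 (1.74 ± 0.39). Chek1 (0.051 ± 0.35) and Tyms (0.18 ± 0.24) were within counting error. The mitosis genes at least 2-fold higher were Ccnb1 (1.25 ± 0.19), Plk1 (1.11 ± 0.18) and Kif20a (1.01 ± 0.18). With TPM scaling, the members called were 16 S phase genes and 1 mitosis gene, and 51.1% rather than 62.6% of the genes at least 2-fold apart were higher. The 4 mitosis genes below their naïve level were Ttk (-0.043 ± 0.30) and 3 genes of the kinetochore and spindle, with Cenpf at -0.59 ± 0.17, Kif23 at -0.33 ± 0.17 and Cenpe at -0.27 ± 0.19. Even so, the median S phase gene in neutrophils after LPS reached an FPKM of 11.9, from 4.87 in naïve neutrophils and against 48.8 in naïve monocytes. Markers of granulocyte precursors (Mpo, Elane, Prtn3, Ctsg and Ms4a3) moved in the same direction. All 5 were at least 2-fold higher after LPS, their summed FPKM was 56.2 in naïve neutrophils and 822 after LPS, and none was at 0. Their part in the result was not tested.

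**Figure D2:**
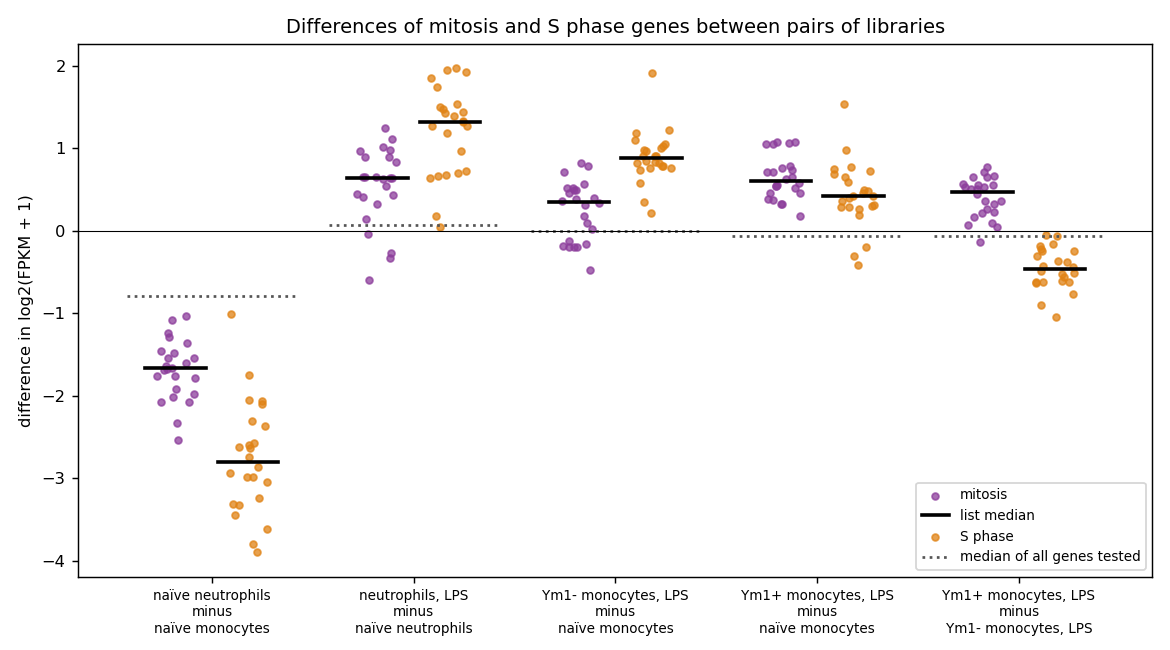
Difference in log2(FPKM + 1) on the vertical axis for each mitosis gene (purple) and S phase gene (orange) in the 5 pairs of libraries, with black bars at the list medians and dotted lines at the median of all genes tested. S phase lies below mitosis in naïve neutrophils against naïve monocytes (-2.80 and -1.67) and in Ym1+ against Ym1- monocytes (-0.47 and 0.48), and above it after LPS in neutrophils (1.32 and 0.64) and in Ym1- monocytes (0.88 and 0.35).

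In monocytes, both LPS libraries were set against the naïve library, which they share. In Ym1- monocytes, 7 of the 24 S phase genes and none of the mitosis genes were at least 2-fold higher, against 2.86% of the 10714 genes tested, and no member was among the 4.72% that were at least 2-fold lower. The median difference was 0.88 for S phase (1.84-fold higher), with all 24 genes above 0 and a range from 0.21 for E2f1 to 1.91 for Ccne1. The mitosis median was 0.35, with 17 genes higher and 7 lower, and that of all genes was -0.0017. Ccne1 led at 1.91 ± 0.23, followed by Rrm2 at 1.22 ± 0.10 and Cdc6 at 1.18 ± 0.18. All 24 S phase differences were beyond counting error. With TPM scaling, 4 S phase genes were at least 2-fold higher. All 6 monocyte markers were lower than in naïve monocytes, 1 (Cx3cr1) at least 2-fold. At least 2-fold lower were also 3 of 4 stem and progenitor, 3 of 7 neutrophil and 2 of 5 granulocyte precursor markers, against 4.72% of all genes. In these lists Ms4a3 alone was at least 2-fold higher, against 2.86% of all genes. The part of these markers in the result was not tested.

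The 7 mitosis genes below their naïve level in Ym1- monocytes were Mki67, Ube2c, Cenpe, Cenpf, Kif23, Nusap1 and Prc1, and the lowest was Cenpf at -0.47 ± 0.16. Checkpoint and cyclin genes were among the higher ones, Bub1 at 0.82 ± 0.20 and Ccnb2 at 0.79 ± 0.13. By role, the medians of the mitosis genes were 0.49 for cyclins and Cdk1 and 0.52 for the checkpoint, and -0.12 for centromere and kinetochore genes and -0.032 for spindle motors and bundlers.

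In Ym1+ monocytes against naïve monocytes, 5 mitosis genes and 1 S phase gene were at least 2-fold higher, against 2.59% of the 10698 genes tested, and no member was among the 4.51% that were at least 2-fold lower. The median difference was 0.60 for mitosis (1.52-fold higher), with all 24 genes above 0, and 0.42 for S phase, against -0.062 over all genes. The mitosis genes past 2-fold were Aurka (1.08 ± 0.14), Plk1 (1.07 ± 0.11), Kif20a (1.06 ± 0.12), Bub1 (1.05 ± 0.17) and Ccnb1 (1.05 ± 0.11). The S phase gene was Ccne1 (1.53 ± 0.22). Of the S phase list 21 genes were higher and 3 lower, namely E2f1 (-0.42 ± 0.18), Cdt1 (-0.31 ± 0.14) and Chek1 (-0.19 ± 0.27). The other members of the licensing group, Cdc6, Gins1 and Gins2, were above their naïve levels, by 0.29, 0.69 and 0.42. All 6 monocyte markers were lower than in naïve monocytes, 2 (Cx3cr1 and Irf8) at least 2-fold. At least 2-fold lower were also 3 of 4 stem and progenitor and 1 of 5 granulocyte precursor markers, against 4.51% of all genes. At least 2-fold higher were 6 of 7 neutrophil and 1 of 5 granulocyte precursor markers, against 2.59%. The part of these markers in the result was not tested.

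Between Ym1+ and Ym1- monocytes, both after LPS, the lists were displaced in opposite directions by small amounts. Both libraries also enter the comparisons with naïve monocytes, so these values follow from those. By any amount, 23 of the 24 mitosis genes were higher in Ym1+ cells, against 41.9% of the 10489 genes tested, and all 24 S phase genes were lower, against 58.1%. The median difference was 0.48 for mitosis (1.39-fold higher) and -0.47 for S phase (1.38-fold lower), against -0.060 over all genes. With median-of-ratios scaling 23 mitosis genes were higher and 23 S phase genes lower, and with TPM 23 and 24. Few differences were large. No member was among the 1.38% of genes at least 2-fold higher, and Cdt1, at -1.05 ± 0.14, was the only one among the 1.18% at least 2-fold lower, a call that median-of-ratios scaling removed. Counting half-widths ran from 0.045 to 0.22 for mitosis and from 0.060 to 0.27 for S phase genes. Beyond them lay 21 mitosis genes above 0, 1 (Ccnb2) below 0 and 19 S phase genes below 0. These half-widths hold no spread between mice or sorts.

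The mitosis genes farthest apart were Prc1, the bundler of the central spindle (0.77 ± 0.12), Nusap1 (0.72 ± 0.11), Cenpe (0.66 ± 0.13), Cenpf (0.66 ± 0.15) and Ube2c (0.65 ± 0.087). Mki67 differed by 0.51 ± 0.045 and Top2a by 0.55 ± 0.056. At the other end of the list, Birc5 (0.067 ± 0.062), Ttk (0.048 ± 0.22) and Ccnb2 (-0.14 ± 0.10) lay near 0. In the S phase list, Cdt1 was followed by Cdc6 (-0.90 ± 0.15), Chek1 (-0.77 ± 0.27), Uhrf1 (-0.63 ± 0.084) and E2f1 (-0.63 ± 0.19). The 6 MCM genes ran from -0.63 to -0.37. Closest to 0 in the S phase list were Rrm1 at -0.16 ± 0.067, Tyms at -0.068 ± 0.17 and Pola1 at -0.048 ± 0.15. Stmn1 differed by -0.099 ± 0.066.

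All 7 neutrophil markers were higher in the Ym1+ library, 6 of them at least 2-fold, with the sum 13818 against 1839, and none was at 0 in either. Marker sums of stem and progenitor cells (3.12 against 9.96) and of granulocyte precursors (1622 against 1964) were lower in the Ym1+ library. Of the granulocyte precursor markers 4 were lower and 1, Elane, was higher (312 against 268). Also lower were those of eosinophils and basophils (0.90 against 31.0), dendritic cells (64.0 against 80.8) and B cell precursors (5.60 against 11.0). In the Ym1- library these sums rested mainly on Prg2 (0 against 28.0), Bst2 (63.9 against 78.7) and Cd79b (5.09 against 11.0). The B cell precursor genes Cd79a (0.17 against 0) and Vpreb1 (0.34 against 0) were higher in the Ym1+ library. Sums of erythroid cells (17.3 against 2.09), megakaryocytes (3.97 against 0.13) and T and NK cells (6.76 against 5.61) were higher. In the Ym1+ library the erythroid sum rested mainly on Hba-a1 (10.3 against 2.08) and Hbb-b1 (6.56 against 0.0035). The others rested mainly on Pf4 (3.48 against 0) and Nkg7 (6.74 against 5.61). The summed FPKM of the 6 monocyte markers was nearly level (1434 against 1489). Of these markers 4 were lower and 2 higher in the Ym1+ library, and Cx3cr1 was at least 2-fold lower (8.38 against 19.8). The depth of the Ym1- library was 44.5% of that of the Ym1+ library. The part of these in the displacement was not tested.

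**Figure D3:**
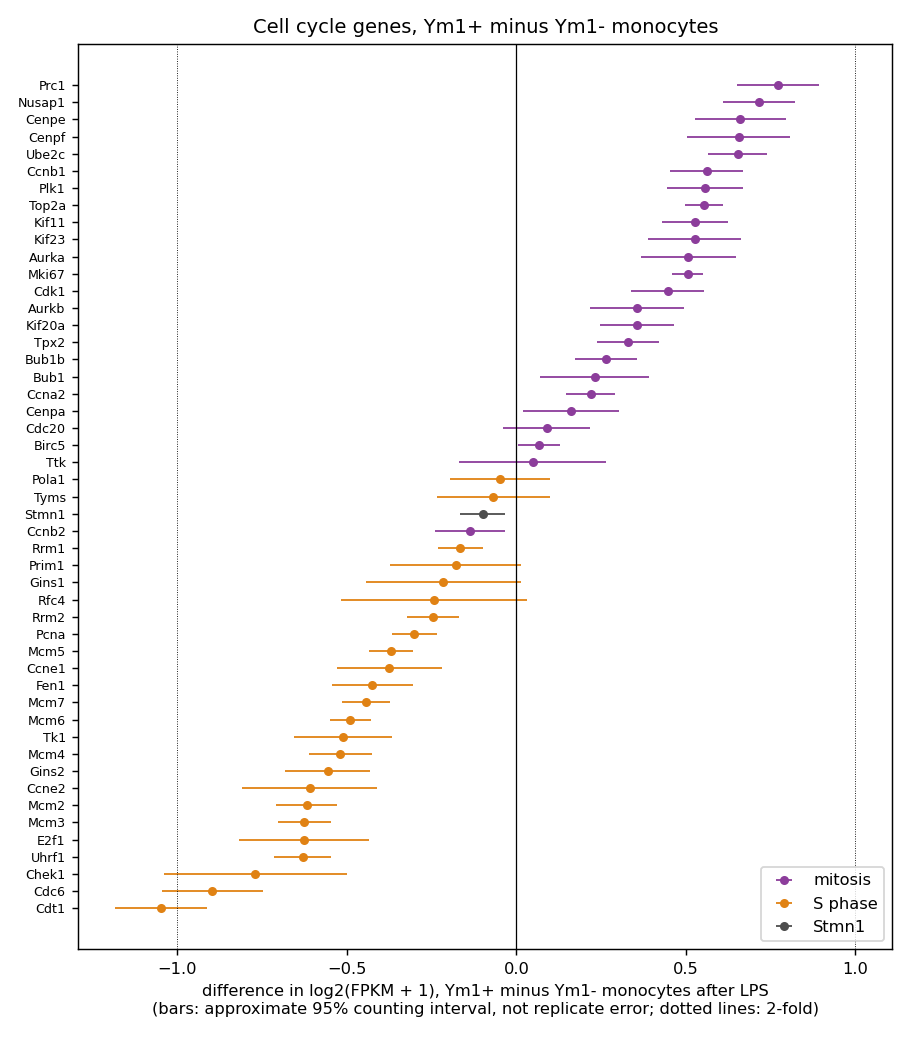
Difference in log2(FPKM + 1), Ym1+ minus Ym1- monocytes after LPS, on the horizontal axis for each of the 49 genes in order of value, with bars for the approximate 95% counting interval, which is not replicate error, and dotted lines at 2-fold. All S phase genes (orange) lie below 0, all mitosis genes (purple) but Ccnb2 lie above it, and Cdt1 alone passes 2-fold.

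The balance of the lists was then taken inside each library, as the S phase median minus the mitosis median of log2(FPKM + 1), which moves little when a library is rescaled. It was -0.27 in naïve monocytes, 0.37 in Ym1- monocytes, -0.78 in Ym1+ monocytes, -1.54 in naïve neutrophils and -1.17 in neutrophils after LPS. Ym1- monocytes were the only library in which the median S phase gene stood above the median mitosis gene, at an FPKM of 86.6 against 66.6. In Ym1+ monocytes these medians were 54.8 and 93.5. As ratios of median FPKM, S phase over mitosis was 0.827, 1.30 and 0.586 in naïve, Ym1- and Ym1+ monocytes, and 0.304 and 0.435 in naïve and LPS neutrophils. With lists shortened to 21 mitosis genes (without Mki67, Top2a and Ccna2) and 20 S phase genes (without Ccne1, Ccne2, E2f1 and Chek1), the balance was -0.059, 0.59, -0.37, -1.09 and -0.26 in the same order of libraries. The positive value of Ym1- monocytes and the most negative one of naïve neutrophils were then as before, while that of LPS neutrophils came close to those of monocytes.

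**Figure D4:**
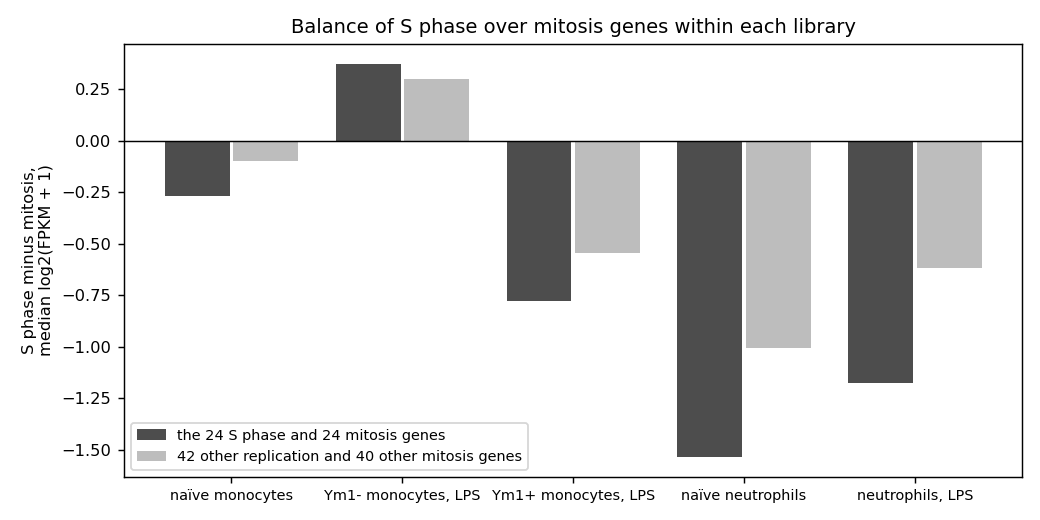
S phase median minus mitosis median of log2(FPKM + 1) within each library on the vertical axis, dark bars for the 24 and 24 genes described here and light bars for 42 other replication and 40 other mitosis genes. The bars are above 0 in Ym1- monocytes (0.37 and 0.30) and below 0 in the other 4 libraries, lowest in naïve neutrophils (-1.54 and -1.003).

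Other genes of the same processes, listed by role, were read alongside. Among 40 further mitosis genes, such as condensin and NDC80 subunits, and 42 further replication genes, such as origin recognition and polymerase epsilon subunits, the balance within a library was -0.097, 0.30, -0.54, -1.003 and -0.62 in the same order. In naïve neutrophils against naïve monocytes, 37 of the 40 and 38 of the 42 were at least 2-fold lower, against 42.7% of all genes tested, with medians of -1.76 and -2.19. In neutrophils, 5 of 40 further mitosis genes and 10 of the 40 further replication genes that reached an FPKM of 1 were at least 2-fold higher after LPS, against 8.96% of all genes tested, with medians of 0.50 and 0.74. Between Ym1+ and Ym1- monocytes, 35 of the 40 were higher by any amount, against 41.9% of all genes, and 38 of the 42 lower, against 58.1%, with medians of 0.29 and -0.36. Orc1, the large subunit of the origin recognition complex, was the 1 gene at least 2-fold lower, at an FPKM of 3.33 against 7.99. Of these genes, 33 of each list had a promoter in the table. CHR letters were found in 23 of the mitosis and 7 of the replication promoters, an E2F site in 3 and 5, and a CCAAT box in 21 and 20. For each motif the shares were closer between these lists than among the 49 genes. Those of CHR letters still stood apart, at 69.7% and 21.2%.

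The cyclin D, Cdk, E2F, Rb-family and inhibitor genes that govern entry into the cycle formed a further list, together with Myc, Btg1, Btg2, Ccng1 and Ccng2. Of 23 that reached an FPKM of 1, 10 were at least 2-fold lower in naïve neutrophils than in the monocytes. At least 2-fold higher was 1 gene, Btg1. These shares were near the 42.7% of all genes tested that were lower and below the 10.8% that were higher. The median difference of the 23 genes, -0.59, became 0.21 with median-of-ratios scaling. Ccnd3, the cyclin D3 gene, had an FPKM of 157, 214 and 236 in naïve, Ym1- and Ym1+ monocytes and 266 and 434 in naïve and LPS neutrophils, and so was highest in neutrophils. Cdk4, the gene of its partner kinase, stood at 125, 184 and 134 and at 5.33 and 13.5, and so followed the S phase genes. The inhibitor genes did not move together. Cdkn1b (p27) and Cdkn2d (p19) stood at 44.8 and 31.8 in naïve monocytes and at 72.4 and 62.8 in naïve neutrophils, whereas Cdkn1a (p21) and Cdkn2c (p18) stood at 13.4 and 37.4 and at 1.27 and 11.4. In Ym1- against naïve monocytes 1 of 23 genes of this list (Cdkn1a) was at least 2-fold higher and 1 (Btg2) lower, against 2.86% and 4.72% of all genes tested. In Ym1+ against naïve monocytes 4 of 23 (Ccnd1, Ccnd2, Myc and Btg2) were at least 2-fold lower and none higher, against 4.51% and 2.59%. Ccnd1, Ccnd2, Ccnd3, Cdk4, Cdkn1a, Cdkn1b, Cdkn2c, Cdkn2d, Myc, Btg1, Btg2 and Orc1 were named after their values had been seen.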

How the data were processed

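RNA from sorted bone marrow cells was sequenced as 5 libraries, 1 per condition, made with a strand-specific SureSelect kit. The authors deposited FPKM values, listed by gene symbol. For alignment and quantification, the submitters' processing notes list Cufflinks 2.1.1 and TopHat2 2.0.8 with the mouse build mm9, without options or annotation. As FPKM is no count, count models were not applied.

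Groups were taken from the sample labels. For 5 pairs of libraries, log2(FPKM + 1) was subtracted over all genes that reached an FPKM of 1 in one of the pair, with Python 3.11.15, numpy 2.4.6 and pandas 2.3.3, and members at least 2-fold apart were counted beside the share of all genes. No test was possible. Relative depth was estimated from ratios of low FPKM values between libraries. Absolute depth was estimated from low FPKM values and the lengths of genes with only 1 annotated transcript. Counting half-widths at 95% were derived from absolute depth and the longest coding transcript of each gene. The call of genes at least 2-fold apart was tried on simulated data, whereas the depth estimate, the half-widths and the motif search were not. Motifs were searched on both strands of RefSeq promoters (32851 promoters of 27025 genes). Of 44 promoters of the 49 genes, 37 had their last 30 bases in a transcript and none the reverse complement.

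The genes, their lists and the alternatives were chosen with earlier results of these data known. Genes named are the 2 of highest mean level in each role, the 3 largest differences per direction among members past 2-fold, and others chosen after their values were seen. Alternatives were median-of-ratios (over 11729 genes above 0 in all libraries) and TPM scaling, a pseudocount of 0.1, a minimum FPKM of 5 or none, and shorter lists.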

Additional observations from a re-analysis of the deposited data

Results flagged for a closer look

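For 10 genes the value after LPS lay on opposite sides of the naïve monocyte level in the Ym1+ and Ym1- libraries. The difference between those effects, which equals Ym1+ minus Ym1- because the naïve library is shared, was 0.51 for Mki67, 0.65 for Ube2c, 0.66 for Cenpe, 0.66 for Cenpf, 0.53 for Kif23, 0.72 for Nusap1 and 0.77 for Prc1, all mitosis genes above the naïve level in Ym1+ cells and below it in Ym1- cells. It was -1.05 for Cdt1, -0.63 for E2f1 and -0.77 for Chek1, S phase genes that were below the naïve level in Ym1+ cells and above it in Ym1- cells. For 1 gene, Ttk, the LPS difference in neutrophils (-0.043) was opposite in sign to both monocyte values (0.34 and 0.38). This value was within its counting half-width of 0.30, as were the value of Cenpe in Ym1- against naïve monocytes (-0.12 ± 0.15) and that of Chek1 in Ym1+ against naïve monocytes (-0.19 ± 0.27), so that for these genes the opposite signs are not shown even against counting error. Each side is 1 library, so these differences were not tested.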

How the results depend on the processing

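Most values changed little with the processing. Of 124 recomputed values, 118 kept their sign and stayed within 1.5-fold, 3 moved by more and 3 counts became smaller by over 1.5 times. The 118 include values that could not change. No member was listed at 0, so leaving out such members had no effect. Every member reached an FPKM of 1 in each pair, so dropping the filter had none either. A minimum FPKM of 5 changed values only between the neutrophil libraries. For log2 values the limit applied to the fold change they stand for, which is a wide margin for balances near 0. The balance of naïve monocytes, -0.27 and with shorter lists -0.059, thus counted as unmoved. With median-of-ratios scaling, naïve neutrophils against naïve monocytes had 31 members at least 2-fold lower instead of 49, a mitosis median of -0.86 and an S phase median of -2.09, and Ym1+ against Ym1- monocytes had 0 members at least 2-fold lower instead of 1. With TPM scaling, 4 instead of 7 members were at least 2-fold higher in Ym1- than in naïve monocytes. With shorter lists, S phase minus mitosis in neutrophils after LPS was -0.26 instead of -1.17, above the -0.37 of Ym1+ monocytes, so the order of these libraries rests on which genes are listed. No paired analysis was possible because each condition has 1 library, and no library could be left out. Depth limits the genes with few fragments, and between the neutrophil libraries the widest counting half-widths were those of Gins1 (0.56), Rfc4 (0.53) and Prim1 (0.40).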
